A study of Saccharomyces cerevisiae with 8 samples.

Results

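The genes described here encode 10 plasma membrane permeases of budding yeast that carry amino acids or small peptides into the cell: AGP1, BAP2, BAP3, GNP1, TAT1, TAT2, DIP5, GAP1, CAN1 and PTR2. They are 10 of the 6002 protein-coding genes annotated on the nuclear chromosomes. They were taken as a named set, which was chosen with earlier results of these data known. Each was followed through its start peak. A start peak is a listed CAGE peak on the gene's own strand that overlaps a window reaching from 300 bp before to 100 bp after the gene's 5′ end, which in this annotation is the first base of the coding sequence. A start peak was listed for 9 of the 10 genes in at least 1 library, and 66.2% of all genes had one in at least 1 library.

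CAGE, cap analysis of gene expression, sequences the capped 5′ ends of RNA. It was applied to 8 libraries of BY4741, a laboratory yeast strain of mating type a that lacks a working LEU2 gene and needs leucine or a LEU2 marker. All strains carried a synthetic human HPRT1 locus (synHPRT1) or its reversed version (synHPRT1R). In the 4 YAC libraries the locus sat on a yeast artificial chromosome (2 libraries of synHPRT1, 2 of synHPRT1R) and the cells grew in SC-Leu, a synthetic medium without leucine. In the 4 integrated libraries it sat in chromosome XI (again 2 and 2) and the cells grew in YPD, a rich medium of yeast extract, peptone and glucose. Medium and location of the locus changed together, so their parts in any difference cannot be told apart. All cultures grew at 30 °C to mid-log phase. Nothing in the labels says that the 2 libraries of a group came from separate cultures, so p-values here measure only the spread between libraries, which may be technical.

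Yeast takes up amino acids through a family of related permeases with overlapping substrates. Extracellular amino acids are sensed at the plasma membrane by the SPS complex (Ssy1, Ptr3, Ssy5), which frees the transcription factors Stp1 and Stp2 to activate permease genes such as AGP1, BAP2, BAP3, GNP1, TAT1, TAT2, DIP5 and PTR2. GAP1 is instead governed by nitrogen quality through GATA factors, and CAN1 is a long-studied permease of arginine.

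The libraries held 2995 to 3367 native peaks and start peaks for 2392 to 2665 genes. The share of genes with a start peak averaged 40.4% ± 0.417 in YAC libraries and 41.6% ± 2.14 in integrated libraries (SD, n = 4 each). No read totals are listed, and library depth is unknown. The most frequent background of a list was solved from the deposited fold and p-value. On the minus strand it was 67.1 to 94.8 tags in YAC libraries and 70.8 to 80 tags in integrated libraries. On the plus strand it was 41 to 52.7 and 46.6 to 51 tags. These ranges overlapped, and no value was adjusted by them. The weakest peak of a list had a summit of 61.0 to 75.0 tags on the plus strand and 93.0 to 125 tags on the minus strand, and a gene without a start peak had no summit that the authors' caller listed above its local background. As a check of the labels, all 4 mating type a markers had a start peak in each of the 8 libraries, while 1 of 4 markers of the other mating type had one in a single library, synHPRT1R integrated replicate 2. For LEU2, a start peak was listed in all 4 YAC libraries and in no integrated library. The libraries are bulk, so fewer expressing cells and less RNA per cell cannot be told apart.

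Values are given on 3 scales. The fold is the authors' own ratio of summit signal to background. It is printed for each library as a description, and tests use it only through the rank of a peak within its list. The highest fold of a list ran from 49.94 to 49.99, so the scale may be bounded above. The position of a gene is the percentage of reference genes on its strand whose start peak had a lower fold in the same list. The reference genes are the 1239 genes with a start peak in all 8 libraries, of which 669 lie on the plus strand and 570 on the minus strand. A gene without a start peak has position 0. The summit tag count was solved from the deposited fold and p-value. Because CAGE reads 5′ ends, these levels do not grow with gene length.

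The number of permease genes with a start peak overlapped between the contexts. The YAC libraries held start peaks for 5, 5, 6 and 6 of the 10 genes, and the integrated libraries for 3, 5, 3 and 7. The means were 5.5 ± 0.577 genes in YAC libraries and 4.5 ± 1.91 in integrated libraries (SD, n = 4 each), and the integrated range spanned the YAC range. The TAT1 start peak was listed in all 8 libraries, as was that of 20.6% of all genes. AGP1 had one in 6 libraries, BAP3, CAN1 and PTR2 in 5, GNP1 and DIP5 in 4, TAT2 in 2, GAP1 in 1 and BAP2 in none.

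None of the 10 genes was listed at its start in every YAC library and no integrated library, where 0.1% of all genes were, and none showed the opposite pattern, where 0.0833% did. More YAC than integrated libraries held a start peak for AGP1, BAP3, CAN1 and GAP1, which is 4 of 10, beside 16.3% of all genes. PTR2 was the only member with fewer, 1 of 10 beside 19.7% of all genes, and 5 members had equal numbers. Genes listed in no library (33.8% of all genes) or in all 8 (20.6%) cannot differ in number. Of the 10 members, 8 were listed in 1 to 7 libraries, and the shares among all such genes were not counted. In Fisher's exact test of presence (two-sided, Benjamini-Hochberg adjusted over 6002 genes) 0 genes passed an adjusted p of 0.05, and 11 genes had an unadjusted p under 0.05, none of them a permease of this set.

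**Figure D1:**
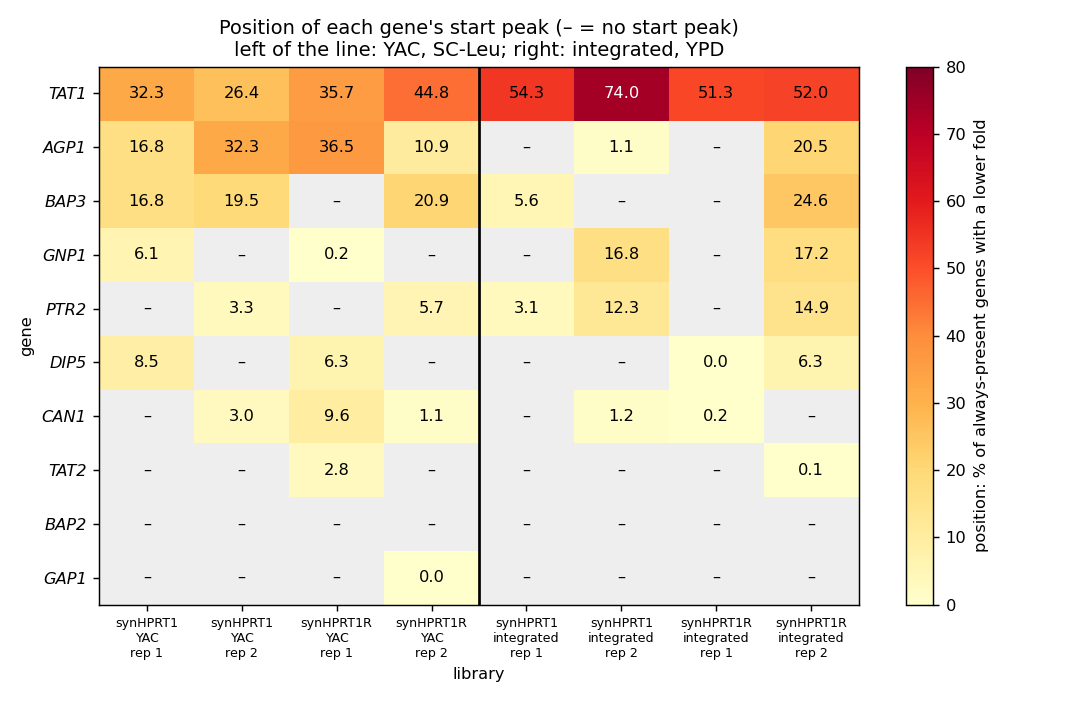
Position of the start peak of each permease gene (vertical axis) in each library (horizontal axis, 4 YAC libraries left of the line and 4 integrated libraries right of it), as the percentage of reference genes with a lower fold. A dash marks no start peak. TAT1 is filled in every library, with 26.4 to 44.8 in YAC libraries and 51.3 to 74.0 in integrated libraries, and BAP2 is empty throughout.

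By mean position over the 8 libraries the order was TAT1 (46.4 ± 15.1), AGP1 (14.8 ± 14.4), BAP3 (10.9 ± 10.6), GNP1 (5.04 ± 7.69), PTR2 (4.91 ± 5.77), DIP5 (2.63 ± 3.70), CAN1 (1.89 ± 3.30) and TAT2 (0.374 ± 0.998), each as SD over n = 8, with BAP2 and GAP1 at 0. From AGP1 down, each gene differed from the next by less than its SD. The ranges of TAT1 and AGP1 overlapped as well. In synHPRT1 YAC replicate 2, AGP1 ranked 438 of 1334 minus-strand peaks and TAT1 494, and in synHPRT1R YAC replicate 1, AGP1 ranked 409 of 1385 and TAT1 416. In the other 6 libraries TAT1 ranked above AGP1 or AGP1 was not listed.

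The position of TAT1 was lower in the YAC libraries, and its groups did not overlap. TAT1 (YBR069C, chrII:376574-378433, minus strand, build sacCer3) encodes a permease of tyrosine and branched-chain amino acids. Its start peak had a fold of 8.10, 6.50, 8.80 and 11.0 in the YAC libraries (synHPRT1 replicates 1 and 2, then synHPRT1R replicates 1 and 2), against 14.7, 26.6, 14.1 and 14.7 in the integrated libraries in the same order. The summits held 706, 513, 842 and 746 tags in YAC libraries and 1181, 2011, 1141 and 1052 tags in integrated libraries. By fold it ranked 443, 494, 416 and 346 among the 1334 to 1390 minus-strand peaks of YAC libraries and 273, 155, 296 and 292 among the 1359 to 1552 of integrated libraries. The lowest integrated library stood above the highest YAC library in fold and summit tags, which are descriptions of libraries of unknown depth and lists of unequal length.

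TAT1 positions were 32.3, 26.4, 35.7 and 44.8 in YAC libraries and 54.3, 74.0, 51.3 and 52.0 in integrated libraries. They averaged 34.8 ± 7.71 in YAC libraries, against 57.9 ± 10.8 in integrated libraries (SD, n = 4 each). YAC minus integrated was -23.1 percentage points. The exact two-sided permutation test gave p = 0.0286, the lowest value possible with 70 arrangements, and 0.794 after Benjamini-Hochberg adjustment over 3973 tested genes, so the difference did not pass. TAT1 was 1 of 10 members with lower YAC positions that did not overlap, beside 1.46% of tested genes, and 0 of 10 had higher ones, beside 2.14%. In all, 143 genes (3.6%) had positions that did not overlap, which are the 143 with an unadjusted exact p under 0.05, and 0 passed the adjusted threshold. Tested genes with a start peak in fewer than 4 libraries could not have such positions. The share among genes listed in all 8 libraries, as TAT1 was, was not counted. The difference was -34.8 points between the synHPRT1 libraries and -11.4 points between the synHPRT1R libraries. Without synHPRT1 integrated replicate 2, the highest library, the difference was -18.0 points with an exact permutation p of 0.0571.

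A second test, limma on normal scores of the ranks of the 1239 reference genes, gave TAT1 a difference of -0.60 normal-score units (SE 0.18) with an adjusted p of 0.311. It did not call TAT1. It called 1 of 1239 genes (0.0807%) at an adjusted p of 0.05, a gene higher in YAC libraries, and 131 genes had an unadjusted p under 0.05. Of all tested genes, 117 (2.94%) differed in mean position by at least as much as TAT1.

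**Figure D2:**
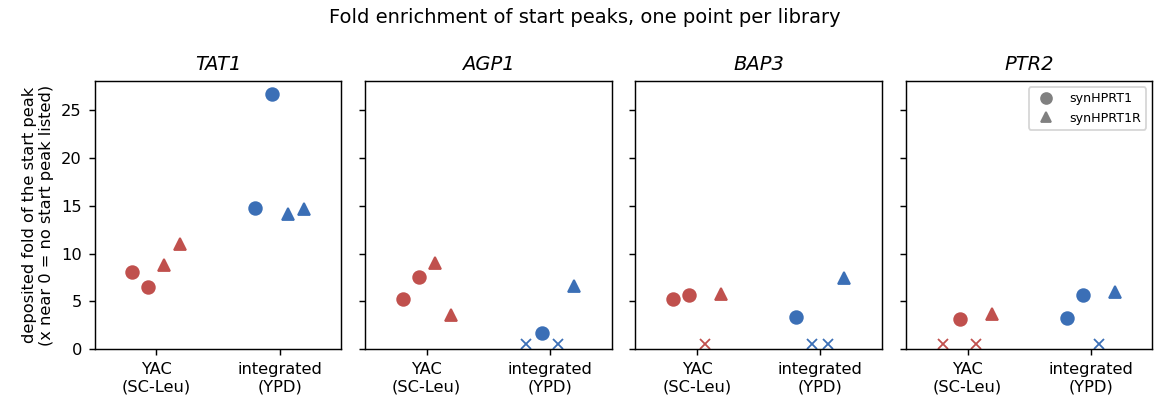
Deposited fold of the start peak in each library for TAT1, AGP1, BAP3 and PTR2, with YAC libraries left and integrated libraries right in each panel, circles for synHPRT1, triangles for synHPRT1R, and a cross where no start peak was listed. TAT1 folds were 6.50 to 11.0 in YAC libraries and 14.1 to 26.6 in integrated libraries, and AGP1 had a start peak in all 4 YAC libraries and 2 integrated libraries.

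The extent of the TAT1 peak also differed. Counted from the first coding base as 0, with negative values upstream, its upstream edge lay at -106, -113, -118 and -106 bp in YAC libraries and at -173, -170, -196 and -183 bp in integrated libraries, with no overlap. Edges averaged -110.75 ± 5.85 bp in YAC libraries and -180.5 ± 11.7 bp in integrated libraries (SD, n = 4 each). Its width measured 236, 208, 212 and 205 bp in YAC libraries and 268, 265, 307 and 313 bp in integrated libraries. For the edge the exact permutation p was 0.0286, adjusted 1 over the 1239 reference genes, and 1.53% of those genes had a nearer YAC edge with no overlap while 0.726% had a farther one. For the width the exact permutation p was 0.0286, adjusted 0.983, and 1.45% of the genes were narrower in YAC libraries with no overlap. The YAC summits were also lower, and the part of summit height in the narrower YAC intervals was not tested.

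The edges of the TAT1 peak fell into 2 stretches, shown because the YAC edges lay in one and the integrated edges in the other. An edge is where a listed interval begins, and different use of start sites was not tested. The reference sequence around them (sacCer3, minus strand, 30 bases each, 5′ to 3′) is given with capitals on the first base of a listed peak and the base after it.
TAT1 integrated edges, chrII:378601-378630: gTTggagtaaaaaaGTatataagaTGcTGt
TAT1 YAC edges, chrII:378530-378559: tctctgacCGtaaAAaaaagCAgaccataa
These windows run from -197 to -168 bp and from -126 to -97 bp of the first coding base. The 4 integrated libraries gave 4 different edges in the first, and the 4 YAC libraries gave 3 different edges in the second, with 2 libraries sharing the edge at -106.

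The genes whose positions were most like those of TAT1 were chosen by the smallest root mean square difference over the 8 libraries. BUD20 differed by 7.55 points, with means of 33.3 ± 7.01 in YAC libraries and 56.9 ± 10.0 in integrated libraries (SD, n = 4 each). SIS1 differed by 9.85 points (40.2 in YAC and 50.2 in integrated libraries), and YOR097C by 9.85 points (44.8 in YAC and 52.1 in integrated libraries). This is a description with no test.

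AGP1 was listed at its start in every YAC library and in 2 integrated libraries. AGP1 (YCL025C, chrIII:76018-77919, minus strand) encodes a permease of broad range that carries asparagine, glutamine and many other amino acids. Its fold was 5.30, 7.59, 9.04 and 3.63 in YAC libraries. In integrated libraries it was 1.74 in synHPRT1 replicate 2 and 6.57 in synHPRT1R replicate 2, with no start peak in either replicate 1. The summits held 461, 599, 865 and 246 tags in YAC libraries and 131 and 471 tags in those 2 integrated libraries. In the minus-strand lists it ranked 636, 438, 409 and 783 in YAC libraries and 1369 and 588 in those integrated libraries. The groups overlapped through 1 integrated library, synHPRT1R replicate 2, whose fold exceeded those of 2 YAC libraries.

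AGP1 positions were 16.8, 32.3, 36.5 and 10.9 in YAC libraries and 0, 1.05, 0 and 20.5 in integrated libraries. They averaged 24.1 ± 12.2 in YAC libraries and 5.39 ± 10.1 in integrated libraries (SD, n = 4 each), but the difference of 18.7 points did not pass (exact two-sided permutation p = 0.0857, adjusted 0.992; Fisher's exact p of presence 0.429). Of all tested genes, 195 (4.91%) differed by at least as much. All 4 YAC libraries and at most 2 integrated libraries held a start peak for 1.67% of all genes. The difference was 24.0 points between the synHPRT1 libraries and 13.4 points between the synHPRT1R libraries. Without synHPRT1R integrated replicate 2 it was 24.6 points and the groups did not overlap, with an exact permutation p of 0.0571.

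The DNA upstream of the AGP1 peaks is shown because CGGC pairs are known as the upstream element through which Stp1 and Stp2 act. It spans -250 to -35 bp of the first coding base, chrIII:77954-78169, sacCer3, minus strand, with CGGC in capitals.
AGP1 upstream: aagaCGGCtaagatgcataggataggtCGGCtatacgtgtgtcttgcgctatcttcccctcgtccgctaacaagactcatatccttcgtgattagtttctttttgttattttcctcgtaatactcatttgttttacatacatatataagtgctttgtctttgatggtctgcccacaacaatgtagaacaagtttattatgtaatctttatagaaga
The motif occurred at -246 to -243 and at -223 to -220 bp. Windows from 250 bp before to 50 bp after the gene start were searched on both strands. At least 1 CGGC was found for 2 of the 10 permeases, AGP1 and CAN1, and for 47.9% of 6001 genes. Pairs were not counted and DNA further upstream was not searched, so a gene without a match may still hold the element. In CAN1 the match lay inside the coding sequence, from +21 to +24. TGACTC, the core of the Gcn4 site, was found in BAP2 alone, at -212 to -207, and in 7.98% of genes. GATAAG, bound by GATA factors, was found in GAP1 alone, at -242 to -237, and in 14.7% of genes. The letters of the 3 motifs do not overlap in these windows, and a match is not a bound site.

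Of the permeases of branched-chain amino acids, BAP3 had start peaks in 5 libraries and BAP2 in none. BAP3 (YDR046C, chrIV:548762-550576, minus strand) was listed at its start in 3 YAC and 2 integrated libraries. Its fold was 5.27 and 5.64 in synHPRT1 YAC replicates 1 and 2 and 5.79 in synHPRT1R YAC replicate 2, against 3.39 in synHPRT1 integrated replicate 1 and 7.48 in synHPRT1R integrated replicate 2. Its ranks were 638, 571 and 587 in those YAC libraries and 845 and 528 in those integrated libraries. The highest and the lowest listed fold were both in integrated libraries. Positions averaged 14.3 ± 9.68 in YAC libraries and 7.54 ± 11.6 in integrated libraries (SD, n = 4 each). They differed by 6.75 points (exact permutation p = 0.486). The difference was 15.4 points between the synHPRT1 libraries and -1.84 points between the synHPRT1R libraries.

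BAP2 (YBR068C, chrII:373861-375690, minus strand) had no start peak in any library, as was the case for 33.8% of all genes. Its upstream neighbour is TAT1, on the same strand with a gap of 883 bp, whose own start peak was listed in all 8 libraries. Peaks antisense to BAP2 were listed within or just past its coding sequence in 3 integrated libraries. They spanned 1262 to 1461 bp from its first coding base in synHPRT1 replicate 1, 1730 to 1929 bp in synHPRT1 replicate 2 and 1530 to 1729 bp in synHPRT1R replicate 1, with folds of 3.22, 3.37 and 2.52. None was listed in a YAC library. The 3 peaks began at different places, and the share of all genes with such a split was not counted. Antisense peaks upstream of DIP5, GAP1 and TAT2 were listed in libraries of both contexts. An antisense peak inside AGP1 was listed in synHPRT1 YAC replicate 2 alone.

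GNP1 (YDR508C, chrIV:1466453-1468444, minus strand), the high-affinity glutamine permease, had a start peak in 2 libraries of each context. Its fold was 3.5 in synHPRT1 YAC replicate 1 and 1.48 in synHPRT1R YAC replicate 1, against 5.76 and 5.99 in replicate 2 of both integrated groups. The summits held 304 and 141 tags in those YAC libraries and 435 and 429 tags in those integrated libraries. Its ranks were 833 and 1329 in those YAC libraries and 621 and 633 in those integrated libraries. Both listed integrated values lay above both listed YAC values, while the other 4 libraries held no start peak. Positions averaged 1.58 ± 3.04 in YAC libraries and 8.51 ± 9.83 in integrated libraries (SD, n = 4 each; difference -6.93 points, exact permutation p = 0.429).

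TAT2 (YOL020W, chrXV:286172-287950, plus strand), the high-affinity tryptophan and tyrosine permease, had a start peak in 1 library of each context. The fold was 2.40 in synHPRT1R YAC replicate 1, rank 1387 of 1621 plus-strand peaks, and 1.68 in synHPRT1R integrated replicate 2, rank 1718 of 1815. Their edges lay at -152 bp in the YAC library and at -104 bp in the integrated library. Both peaks were among the weaker peaks of their lists, and 6 libraries had none. TAT1 and TAT2, which share tyrosine as a substrate, thus stood at the first and eighth place of the order.

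DIP5 (YPL265W, chrXVI:41043-42869, plus strand) carries the acidic amino acids glutamate and aspartate. Its fold was 4.69 in synHPRT1 YAC replicate 1 and 3.37 in synHPRT1R YAC replicate 1, against 2.1 and 3.51 in synHPRT1R integrated replicates 1 and 2. Its ranks were 964 and 1161 in those YAC libraries and 1505 and 1148 in those integrated libraries. The groups overlapped, and the difference of mean positions was 2.13 points (exact permutation p = 0.714).

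CAN1 (YEL063C, chrV:31694-33466, minus strand) carries arginine and other basic amino acids. Its fold was 2.56, 3.40 and 2.01 in the YAC libraries other than synHPRT1 replicate 1, against 1.86 in synHPRT1 integrated replicate 2 and 1.57 in synHPRT1R integrated replicate 1. The summits held 201, 325 and 136 tags in those YAC libraries and 140 and 126 tags in those integrated libraries, and the lowest of them came close to the weakest summits listed on the minus strand. Mean positions were 3.42 ± 4.33 in YAC libraries and 0.351 ± 0.591 in integrated libraries (SD, n = 4 each; difference 3.07 points, exact permutation p = 0.257).

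GAP1 (YKR039W, chrXI:515063-516871, plus strand), the general amino acid permease, had 1 start peak, in synHPRT1R YAC replicate 2. It was the last of the 1729 plus-strand peaks of that list by fold, at 1.40, with 103 tags over a local background of 73.5. It began 29 bp inside the coding sequence. A further sense peak, outside the start window, was listed from -940 to -741 bp in synHPRT1 integrated replicate 2 with a fold of 3.81.

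PTR2 (YKR093W, chrXI:615730-617535, plus strand), the transporter of di- and tripeptides, was listed at its start in 2 YAC and 3 integrated libraries. Peptone in YPD is a source of peptides. The fold was 3.12 in synHPRT1 YAC replicate 2 and 3.64 in synHPRT1R YAC replicate 2, against 3.28 and 5.70 in synHPRT1 integrated replicates 1 and 2 and 5.99 in synHPRT1R integrated replicate 2. Its ranks among plus-strand peaks were 1208 and 1084 in those YAC libraries and 1136, 875 and 818 in those integrated libraries. The groups overlapped. Mean positions were 2.24 ± 2.77 in YAC libraries and 7.59 ± 7.15 in integrated libraries (SD, n = 4 each), and the -5.34 points between them did not pass (exact permutation p = 0.343). In synHPRT1 YAC replicate 1 a sense peak lay outside the window, from -539 to -340 bp, with a fold of 4.11. Over the 10 members the median difference of position was 0.336 points and the median absolute difference 4.21 points, beside 0 and 2.69 points over all tested genes.

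**Figure D3:**
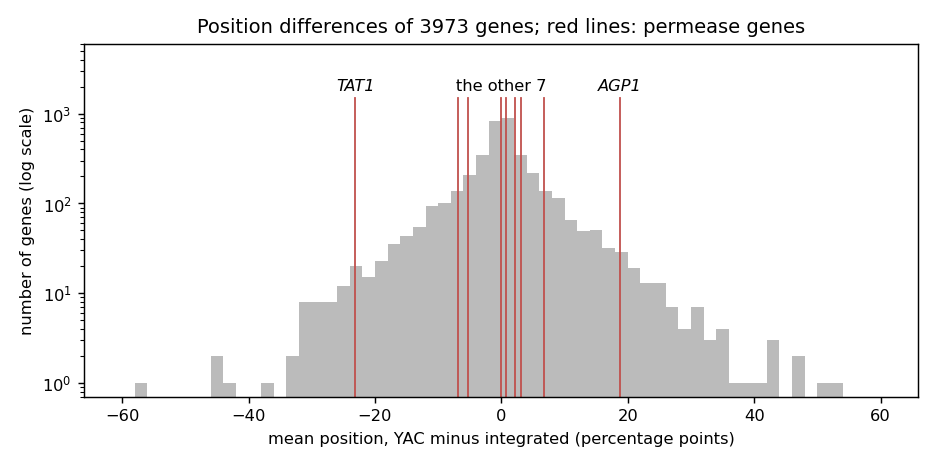
Mean position in YAC libraries minus that in integrated libraries (horizontal axis, percentage points) for 3973 genes with a start peak in at least 1 library (bars, number of genes on a log scale), with red lines at the permease genes. TAT1 lies at -23.1 and AGP1 at 18.7, and the other 7 genes with a start peak lie between -6.93 and 6.75.

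The start of a listed peak recurred between libraries in some permease genes and not in others. The upstream edge of the GNP1 peak was at -45 bp in all 4 libraries that held it, and that of BAP3 at -95 bp in 4 of 5 and at -93 bp in the other. AGP1 edges lay between -34 and -27 bp in 6 libraries of both contexts. DIP5 edges lay at -111 bp in 2 libraries and at -125 and -124 bp in the others. CAN1 had 5 different edges in 5 libraries, from -77 to 20 bp, PTR2 edges ran from -111 to -18 bp in 5 libraries, and TAT2 edges lay at -152 and -104 bp. TAT1 edges split by context, as described for that gene. The sites of AGP1, BAP3, GNP1 and DIP5 are shown in 30-base windows because they recur or lie close together between libraries of different media, with capitals on the first base of a listed peak and the base after it (sacCer3, 5′ to 3′).
AGP1, chrIII:77934-77963, minus strand: ttatagaagaAGCAcgcTAatatagacaaa
BAP3, chrIV:550655-550684, minus strand: aaatcggaaaaacCGGGcattaaaaactac
GNP1, chrIV:1468474-1468503, minus strand: taagaaaaaaaaacTAtcgctttctcaagt
DIP5, chrXVI:40911-40940, plus strand: acttgtaTTGagctagagtgcTGgataaag
Adjacent edges share letters, so that AGCA holds the edges at -34, -33 and -32 bp of AGP1.

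The first 2 bases of a peak were a pyrimidine followed by a purine in 29 of 40 permease start peaks (72.5%) and in 14820 of 19656 start peaks of other genes (75.4%). Yeast transcription commonly starts at the purine of such a pair, which here is the second base of the listed peak. Pairs on both sides of the edge were counted as well, and the first 2 bases had the highest share. With the purine as the first base of the peak, the shares were 0 of 40 and 5.18%. The first 2 bases were such a pair in 4 of 4 GNP1 peaks, 4 of 5 BAP3 peaks, 5 of 5 CAN1 peaks and 5 of 8 TAT1 peaks. They were in 3 of 6 AGP1 peaks and 2 of 5 PTR2 peaks.

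The TAT1 summit lay upstream of the coding sequence in 7 of 8 libraries and 11 bp inside it in synHPRT1 YAC replicate 1, and every listed DIP5 and TAT2 summit lay upstream. The median summit was at -36.5 bp for TAT1, at -17.5 bp for DIP5 and at -28 bp for TAT2, beside a median of 63 bp inside the coding sequence for the reference genes (quartiles 43 and 77.5 bp). AGP1, at 72.5 bp, and GNP1, at 55 bp, lay within those quartiles. A summit is not where a peak begins. The median upstream edge of the reference genes was at -55 bp, before the coding sequence. It was at -144 bp for TAT1, -117.5 bp for DIP5, -128 bp for TAT2, -32.5 bp for AGP1 and -45 bp for GNP1. The narrowest interval in the lists was 200 bp, and 18 of 40 permease start peaks (45%) had that width, beside 9.96% for other genes with a start peak in 8 libraries and 55.8% for those in 1 to 7 libraries. None of the start windows of the 10 genes shared a 31-base word with another place in the genome, and both references used by the authors gave the same libraries for each gene.

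**Figure D4:**
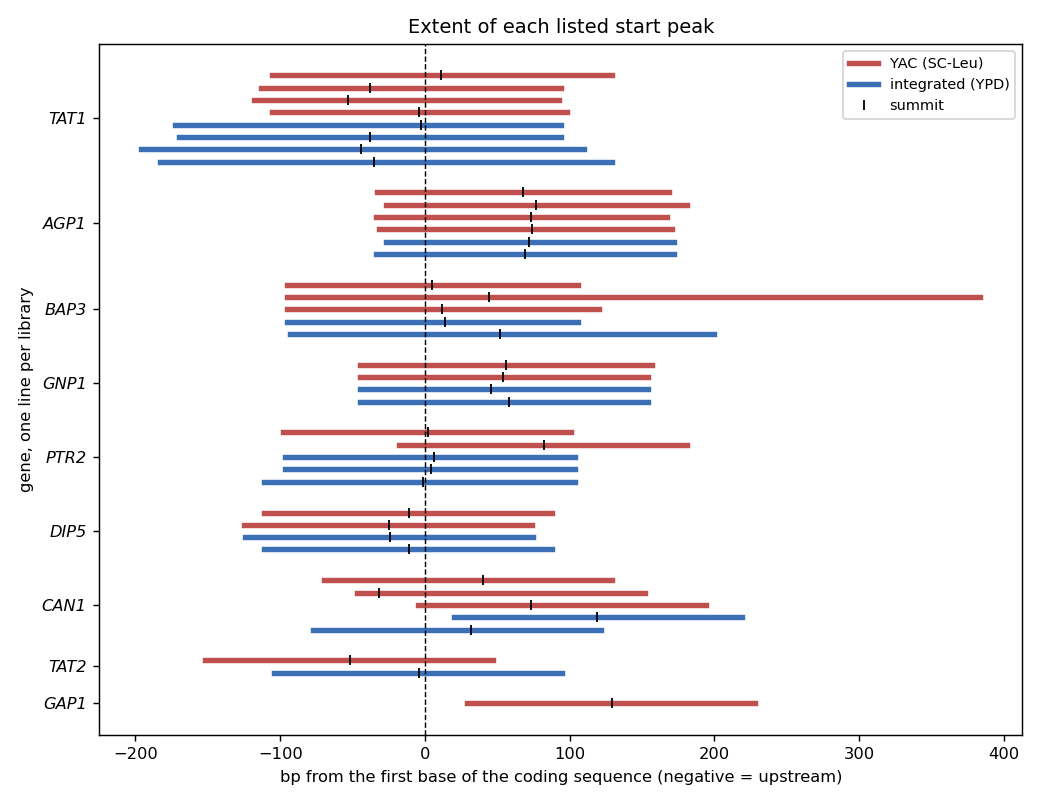
Extent of each listed start peak (horizontal axis, bp from the first base of the coding sequence, negative upstream) with 1 line per library and gene, YAC libraries in red above integrated libraries in blue, and the summit as a tick. The TAT1 lines begin between -118 and -106 bp in YAC libraries and between -196 and -170 bp in integrated libraries, and the 4 GNP1 lines begin at -45 bp.

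Genes around the permeases were followed in 7 lists, of which 96 of 99 genes matched the annotation and 3 (CAR80, AMU1 and BTN1) did not. More YAC than integrated libraries held a start peak for 25 of the 96, beside 16.3% of all genes, and fewer for 23 of the 96, beside 19.7%. Both shares of the 96 were above those of all genes, but genes listed in no library or in all 8 cannot differ in number. Shares among genes listed in 1 to 7 libraries were not counted, so the 2 comparisons are not between like sets. None had 4 of 4 libraries of one context and 0 of 4 of the other. Genes named below for at least 3 libraries of one context and at most 1 of the other were picked by that split. Their exact permutation p for position ran from 0.143 to 0.657, and the share of all genes with such a split was not counted. Positions did not overlap in 3 of the 96, CSR2 and ADH5 with higher and GLN1 with lower YAC positions, beside 3.6% of all tested genes, a similar share. The 96 include genes with no start peak in any library, which the tested genes do not.

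Among 14 other amino acid permeases, 6 had a start peak in more YAC libraries, 2 in fewer and 6 in equal numbers, with 0 that did not overlap. On average 6 ± 1.41 of them had a start peak in YAC libraries and 4.5 ± 0.577 in integrated libraries (SD, n = 4 each). AGP2, a plasma membrane regulator of polyamine and carnitine uptake, had 3 YAC libraries and 1 integrated library, as did SAM3, the S-adenosylmethionine permease. MUP1, the high-affinity methionine permease, was singled out after its values were seen: its positions were 63.5, 33.8, 41.1 and 26.3 in YAC libraries and 0, 32.3, 8.07 and 24.8 in integrated libraries (exact permutation p = 0.0571, adjusted 0.970).

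Of the 14 genes of amino acid sensing, 4 had a start peak in more YAC libraries, 1 in fewer and 9 in equal numbers. STP1, the activator downstream of the sensor, was listed in all 8 libraries, and the sensor gene SSY1 in none. PTR3, a sensor subunit, and DAL81, a coactivator, had 4 YAC and 2 integrated libraries each. All 4 YAC and at most 2 integrated libraries held a start peak for 1.67% of all genes. PTR3 positions averaged 5.34 in YAC and 5.68 in integrated libraries (exact permutation p = 0.971). Those of DAL81 averaged 18.2 and 10.1 (exact permutation p = 0.486). GRR1, the F-box protein needed for signalling, had 0 YAC and 3 integrated libraries with folds of 3.42, 3.41 and 2.16.

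Among 19 matched genes of nitrogen regulation and assimilation, 7 had a start peak in more YAC libraries, 4 in fewer and 8 in equal numbers. GLN1, glutamine synthetase, had folds of 2.95, 2.43, 1.93 and 2.97 in YAC libraries and 5.53, 7.69, 6.10 and 8.26 in integrated libraries. Its summits held 1369, 1142, 1238 and 1373 tags in YAC libraries and 1823, 2626, 2189 and 2661 tags in integrated libraries. The fold divides by background, so the low positions of GLN1 do not stand for few tags. The part of background in the difference between contexts was not tested. Its positions averaged 2.32 ± 1.16 in YAC libraries and 17.0 ± 7.48 in integrated libraries (SD, n = 4 each), with no overlap (difference -14.7 points, exact permutation p = 0.0286, adjusted 0.794).

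Among 21 matched genes of permease trafficking and turnover, 4 had a start peak in more YAC libraries, 7 in fewer and 10 in equal numbers. CSR2 and ROG3 encode arrestin-related adaptors that direct ubiquitination of transporters. CSR2 had folds of 5.38, 11.5, 16.4 and 4.98 in YAC libraries and 1.9, none, 4.17 and 1.55 in integrated libraries, without overlap (difference 25.3 points, exact permutation p = 0.0286, adjusted 0.794). ROG3 had start peaks in 3 YAC libraries and 1 integrated library. GTR1, a GTPase of nutrient signalling at the vacuole, had 1 YAC library and 3 integrated libraries.

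Among 9 genes of aromatic and branched-chain amino acid breakdown, 0 had a start peak in more YAC libraries and 2 in fewer. ADH5, an alcohol dehydrogenase, had folds of 27.2, 29.2, 29.3 and 32.9 in YAC libraries and 16.9, 7.96, 17.0 and 14.9 in integrated libraries, without overlap (difference 26.5 points, exact permutation p = 0.0286, adjusted 0.794). ARO9, an aromatic aminotransferase, had 1 YAC library and 3 integrated libraries. Of 14 matched vacuolar amino acid transporters, 2 had more YAC libraries and 5 fewer, among them AVT6 with 1 YAC and 3 integrated libraries. Of 5 genes of peptide and allantoate transport, 2 had more YAC libraries and 2 fewer: CUP9, the repressor of PTR2, had 3 YAC libraries and 1 integrated library, and DAL5, the allantoate permease, had 1 and 3.

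**Figure D5:**
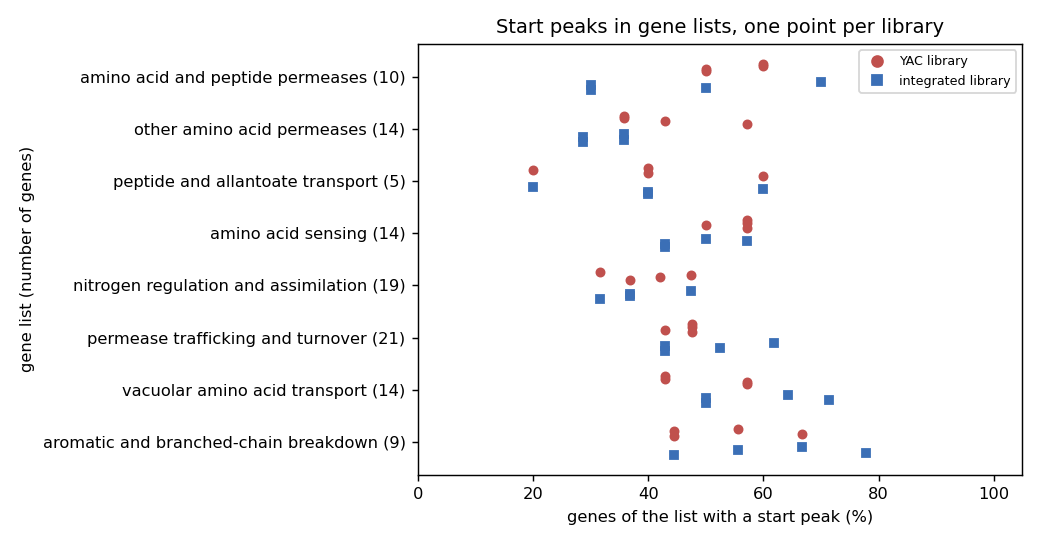
Share of the genes of each list (vertical axis, number of matched genes in parentheses) that had a start peak in a library (horizontal axis, percent), with 1 point per library, YAC libraries as red circles above integrated libraries as blue squares. For the 10 permeases the YAC libraries held 5 to 6 genes and the integrated libraries 3 to 7, and the ranges of the contexts overlap in every list.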

How the data were processed

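Peak lists of CAGE were used from 8 yeast libraries in 4 groups of 2. The authors deposited 32 lists, with 1 for each library, strand and reference sequence, and no list pools libraries. The deposited fold sets summit signal over background as a ratio. Each deposited peak also has a −log10 p-value and a −log10 q-value, and the deposited score column was not used. MACS2 2.1.0, Bowtie2 2.2.9, deepTools 3.5.0, SAMtools 1.9 and bcl2fastq 2.20 are named with build sacCer3, per the submitters' processing notes; their roles are not given in the sources used. No molecular identifiers are mentioned.

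From the lists made against the reference that holds the synthetic sequence as its own contig, start peaks were assigned in a window from 300 bp before to 100 bp after the gene start, with forward lists as the plus strand. Where several peaks overlapped it, the one with the highest fold was used. Gene coordinates and sequences come from RefSeq assembly R64, the assembly of sacCer3. Positions were compared by exact permutation over 70 arrangements and presence by Fisher's exact test, both with Benjamini-Hochberg adjustment, in Python 3.11.15 with SciPy 1.17.1. Normal scores were fitted with limma 3.58.1 in R 4.3.3. The functions were tested on simulated data. Summit tags were solved from fold and p under a Poisson model.

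All 10 members are named. Of the 7 related lists, a gene is named when at least 3 libraries of one context and at most 1 of the other had a start peak, or when positions did not overlap, with at most 6 per list; genes named to describe sensing and MUP1 fall outside this rule and were chosen after their values were seen. The members and lists were chosen with earlier results of these data known. Alternatives covered the q threshold, list length, window, reference, ranking scale, replicate block and each library left out.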

Additional observations from a re-analysis of the deposited data

Results flagged for a closer look

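For the 8 members other than BAP2 and GAP1, the 4 YAC and the 4 integrated positions were screened with Dixon's ratio for a single library far from the other 3, as were the numbers of members with a start peak. This marked 7 of 18 sets. Chance marks about 1 in 20 sets of continuous values, and most of these sets hold positions of 0 for libraries without a start peak. A lone listed peak, as in both TAT2 sets, is marked by construction. The other marked sets held more listed start peaks. In synHPRT1R integrated replicate 1 the DIP5 peak was listed and still had position 0.

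TAT1 gave the one marked set in which all 4 libraries held a start peak: synHPRT1 integrated replicate 2 stood at 73.99 and the other integrated libraries at 51.3 to 54.3. For AGP1, synHPRT1R integrated replicate 2 stood at 20.5 beside 0, 1.05 and 0 in the other integrated libraries. For GNP1, synHPRT1 YAC replicate 1 stood at 6.14. For TAT2, the lone start peaks were at 2.84 in synHPRT1R YAC replicate 1 and at 0.149 in synHPRT1R integrated replicate 2. For DIP5, synHPRT1R integrated replicate 2 stood at 6.28, and for CAN1, synHPRT1 integrated replicate 2 stood at 1.23. The integrated library most often marked, synHPRT1R replicate 2, also held start peaks for the largest number of members, 7, and of all genes, 2665.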

How the results depend on the processing

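The number of members with a start peak in every library of one context and none of the other was 0 under all 15 alternatives run. The number with positions that do not overlap was 1 (TAT1) and ranged from 1 to 2 when each library was left out in turn. It was 2, AGP1 and TAT1, without synHPRT1R integrated replicate 2. Under the replicate block, and with labels permuted within a sequence, TAT1 positions still did not overlap. The count of members with an exact p under 0.05 is then 0 by construction, since 36 arrangements allow no p below 0.0556 and no gene could be counted. The count was 0 by limma and 0 by limma with the replicate block, counting calls at an adjusted p of 0.05 (TAT1: 0.311 and 0.366). The replicate numbers do not pair the libraries: differences between replicates correlated at -0.0541 to 0.00771 over 6 pairs of groups. The TAT1 difference in position ranged from -26.0 to -18.0 points over the libraries left out. Ranked against all native peaks of a list, it was -13.5 points, and the differences were 40.8 for AGP1, 16.2 for BAP3, 16.6 for CAN1, 4.44 for DIP5, -18.4 for GNP1 and -17.6 for PTR2, so that AGP1 and not TAT1 then had the largest. Over the libraries left out, the differences ranged from 4.5 to 12.8 for BAP3, 1.36 to 4.38 for CAN1, 0.471 to 3.95 for DIP5, -10.5 to -4.37 for GNP1 and -8.56 to -3.34 for PTR2. The TAT2 difference lay between -0.036 and 0.925 points over the libraries left out, and it reversed, to -0.036, without synHPRT1R YAC replicate 1. Differences of AGP1, BAP3, GNP1, DIP5, CAN1 and PTR2 kept their direction and did not pass under the alternatives run, of which limma covered TAT1 alone. BAP2 stayed at 0, and GAP1 was at 0 except for 0.0374 ranked by −log10 p and 0.486 ranked by summit tags. With 4 libraries against 4, no exact p can fall below 0.0286, and peaks under the listing threshold cannot be seen.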
